A study of Homo sapiens with 8 samples.

Results

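DNA transposons are the "cut and paste" mobile elements of the human genome. The results concern 124 repeat families that RNA-seq of THP-1 cells measured: every repeat row whose name began with Tigger, Charlie, Cheshire, Arthur, Zaphod, Kanga, Ricksha, Looper, MADE, HSMAR, ORSL or Chap, out of 1264 repeat families in the table. The prefix Blackjack was searched as well and matched 0 families. THP-1 is an established human line grown from an acute monocytic leukemia, and decitabine (DAC) is a cytidine analogue that is built into DNA and traps DNA methyltransferases, so that methylation is lost as cells divide. The 8 libraries fell into 4 groups of 2 biological replicates: parental THP-1 cells with DMSO, parental cells with 1 µM DAC for 6 days, DAC-resistant THP-1 cells with DMSO, and DAC-resistant cells with 1 µM DAC for 6 days. Both kinds of cells carried the label WT, and the resistant cells had been selected from THP-1 by repeated exposure to the drug. From how many separate selections the resistant cells came was not stated, which limits what a difference between the cell lines stands for.

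A complete DNA transposon carries a transposase gene between terminal inverted repeats, and the transposase cuts the element out of one place and inserts it into another. In the human genome these elements are fossils that no longer move. Those studied here belong to the superfamilies TcMar (Tigger, Kanga, HSMAR and MADE), hAT (Charlie, Cheshire, Arthur, Zaphod, ORSL and Chap), MULE (Ricksha) and piggyBac (Looper). Most copies lie between genes or in introns, so an RNA read on a family may come from a host transcript that contains a copy, and a family value pools all copies of that name. MADE families are miniature elements made of little more than the 2 inverted repeats, and many genes of the miR-548 microRNA family arose from MADE1.

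That inverted-repeat form can be read in miR-548 hairpins. The RefSeq sequences used here (GRCh38.p14) are a partial set that held 5 miR-548 hairpins. Of these 5, the 3 with the longest arms are printed 5′ to 3′. Capitals mark these arms, the longest pair of stretches that are perfect reverse complements of each other. MIR548AR and MIR548AS, with arms of 9 and 7 bases, are not printed. MIR548M lies at chrX:95063141-95063226 on the minus strand, and each of its arms is 29 bases long. MIR548AW lies at chr9:132945707-132945771 on the plus strand, with arms of 13 bases. MIR548AT lies at chr17:42494773-42494830 on the plus strand, with arms of 12 bases. Whether these 3 loci lie in annotated MADE1 copies was not examined.
MIR548M: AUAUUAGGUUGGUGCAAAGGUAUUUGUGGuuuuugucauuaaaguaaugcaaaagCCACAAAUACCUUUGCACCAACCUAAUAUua
MIR548AW: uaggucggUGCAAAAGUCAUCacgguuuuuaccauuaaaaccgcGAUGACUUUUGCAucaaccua
MIR548AT: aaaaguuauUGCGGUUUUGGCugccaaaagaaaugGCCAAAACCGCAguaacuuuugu

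The same RefSeq set held 55 mature miR-548 names with 29 different seeds (bases 2 to 8, in capitals in the lines printed here), and the commonest seed, AAAGUAA, was shared by 11 of them. The first pair shares that seed, and the third differs from it.
miR-548ar-5p: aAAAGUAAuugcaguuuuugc
miR-548as-5p: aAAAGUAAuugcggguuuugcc
miR-548m: cAAAGGUAuuugugguuuuug
The libraries were made from mRNA and hold next to nothing of these small genes. The table lists 72 miR-548 genes, 50 of them at 0 in all 8 libraries, which allows up to 3 reads in each library by counting error alone, and the highest had 22 reads over the 8 libraries. So the data speak of MADE families in longer RNA and not of the microRNAs.

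The table gave FPKM (reads per kilobase of total family length per 1000000 reads counted on repeats). Repeat reads came to between 3112608 and 3725841 per library, and reads on genes to between 27480502 and 31916835. There were 114 to 117 repeat reads per 1000 gene reads in the 4 parental libraries and 103 to 104 in the 4 resistant ones, without overlap. Since repeat families were scaled to repeat reads, a family with an equal share of repeat reads in both cell lines is lower relative to gene reads in resistant cells, and for the comparisons between the cell lines the counts, medians and main differences are also given relative to gene reads. Monocytic marker genes averaged at least 1 FPKM for 7 to 9 of 9 genes in every group, and their summed level was 182 to 183 FPKM in parental cells with DMSO, 287 to 292 with DAC, 110 to 115 in resistant cells with DMSO and 115 to 120 with DAC. Summed levels of other lists were at most 0.549 FPKM for T cells, 2.94 for erythroid cells, 1.93 for epithelial cells and 8.56 for B and plasma cells. The part of this marker shift in the family values was not tested, and in bulk RNA fewer cells with an RNA and less of it per cell cannot be told apart.

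Of the 124 families, 109 passed the minimum for testing (a table value of 1, or 0.001 FPKM, in at least 2 libraries), 51 of TcMar, 52 of hAT, all 5 Ricksha families and Looper. The other 15 were listed at 0 in all 8 libraries. They were Arthur2, Chap1a_Mam, Charlie16, Charlie29b, Charlie30b, Charlie31a, Charlie32a, Tigger6, Tigger17d, Tigger21a, Tigger22N1, Tigger23a, Zaphod4a, Zaphod5a and Zaphod5b. Every tested family had a read in all 8 libraries, from a mean of 11.5 reads for Tigger1a_Mars to 15327 for Tigger1. Levels were modest: the mean over the 8 libraries ran from 0.180 FPKM for Arthur1 to 5.84 for Charlie14a, with a median of 0.797 FPKM, beside 0.455 FPKM over the 1165 families of all kinds that were tested.

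The 5 families with the highest level per length were Charlie14a, Tigger16b, Tigger10, Tigger19b and Charlie10a. Charlie14a stood at 4.94 and 4.93 FPKM in parental cells with DMSO, 5.54 and 6.08 after DAC, 5.94 and 6.47 in resistant cells with DMSO and 6.59 and 6.20 with DAC. Tigger19b stood at 4.02 and 4.17, 4.0 and 3.76, 5.05 and 5.21, and 5.09 and 5.17 FPKM in the same order of groups. For Charlie10a the 4 parental libraries lay between 3.36 and 3.61 FPKM and the 4 resistant ones between 4.44 and 5.74. All 4 resistant libraries were above all 4 parental ones for Tigger19b and Charlie10a, whereas for Charlie14a the lowest resistant library, at 5.94, lay below the higher parental library with DAC, at 6.08. With DMSO the log2 difference of Charlie10a between resistant and parental cells was 0.45 (limma adjusted p = 0.0318), and relative to gene reads it was 0.28 and did not pass the test (limma adjusted p = 0.102). With DAC it was 0.57 (limma adjusted p = 0.0124), and 0.42 relative to gene reads (limma adjusted p = 0.0314), a call that was lost without the second parental DAC library (limma adjusted p = 0.0648) and with only the 4 libraries fitted (limma adjusted p = 0.0556). Charlie14a went from 0.33 with DMSO (limma adjusted p = 0.0226) to 0.15 relative to gene reads (limma adjusted p = 0.147). Its call was also lost under TPM and quantile normalization, where the difference was as low as 0.0021, and with only the 4 libraries fitted. The same held without either parental DMSO library and without the second resistant DMSO library. The Charlie10a call with DMSO was also lost without any 1 of the 4 libraries (limma adjusted p 0.0704 to 0.128). The 5 lowest were Arthur1, Ricksha_a, Charlie25, Tigger1a_Mars and Zaphod. Ricksha_a, at 0.307 and 0.243 FPKM in the parental line with DMSO and 0.0907 and 0.181 with DAC, rested on 7 to 28 reads a library. Tigger1a_Mars, whose copies add up to 15.9 kb in all, ranged from 0.0506 to 0.345 FPKM on 3 to 19 reads a library, and its replicates differed more than its groups. Arthur1 lay between 0.148 and 0.206 FPKM in all 8 libraries.

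By reads rather than by level the order was another one, because family lengths ran from 8.11 kb to 9598 kb. Tigger1, the longest at 9598 kb, took 9.99% of all reads on the 124 families, and the top 10 families took 37.5%. Its level was nearly flat, from 0.472 to 0.499 FPKM over the 8 libraries. Replicates agreed better where there were more reads: the median difference between replicates was 0.24 on the log2 scale for the 11 families under 100 reads a library, 0.12 for the 53 with 100 to 1000 reads and 0.056 for the 45 above that.

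Together the families held 46.2 and 45.9 of every 1000 repeat reads in parental cells with DMSO, 42.5 and 43.0 after DAC, 47.9 and 48.5 in resistant cells with DMSO and 49.3 and 48.9 with DAC. The parental DAC libraries were the lowest pair and the resistant DAC libraries the highest, and no 2 groups overlapped. Means were 46.1 ± 0.197 (SD, n = 2), 42.8 ± 0.33, 48.2 ± 0.395 and 49.1 ± 0.278 per 1000. Per 1000000 gene reads the means were 5384, 4909, 4980 and 5060 in the same order. The mean was lower with DAC in parental cells on both scales (log2 ratio -0.11 per repeat reads and -0.13 per gene reads). The resistant cells with DMSO stood above the parental ones per repeat reads (log2 ratio 0.065) and below them per gene reads (-0.11). With 2 libraries against 2, an exact permutation test cannot give a two-sided p under 0.33, and each of these log2 ratios reached that limit.

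**Figure D1:**
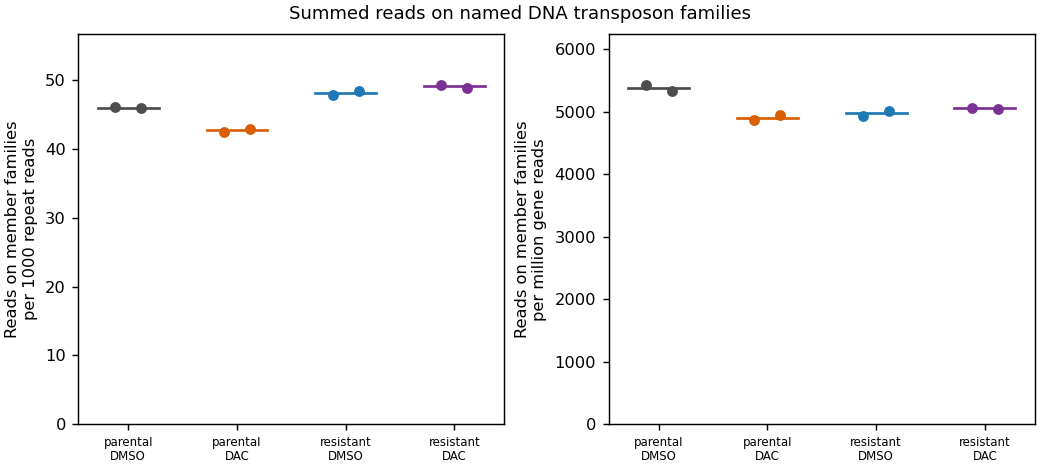
Summed reads on the 124 families in each library, per 1000 repeat reads (left) and per 1000000 gene reads (right), by group. Points are libraries and lines are means of 2; parental cells with DAC have the lowest mean in both panels, overlapping the resistant DMSO libraries in the right one, and the order of parental and resistant cells with DMSO turns between the panels.

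The first comparison asked which families changed when parental cells were given DAC. More of the families went down than up, by small amounts. Among the families past an adjusted p of 0.05 with separate groups, Charlie17, Charlie11 and Ricksha_0 fell the most, by log2 changes of -0.92 to -1.0, and Zaphod, Charlie6 and Charlie2b rose the most. Ricksha_a had a log2 change of -1.09 (SE 0.33, limma adjusted p = 0.0709), Tigger1a_Mars one of 0.92 with overlapping groups (limma adjusted p = 0.54) and Tigger17, chosen after its values were seen, one of 0.66 (SE 0.30, limma adjusted p = 0.176), and none of these passed. No member passed the stricter rule (limma, p before adjustment no higher than 0.01 with a log2 change of 1 or more), which called 3.43% of all tested families as higher and 0.773% as lower. At an adjusted p under 0.05 (limma, Benjamini-Hochberg over all 1165 families) 7 of 109 members were higher and 20 lower, beside 12.6% and 11% of all families. By share this is 6.42% of members higher and 18.3% lower. Replicate ranges did not overlap for 16 members that were higher and 55 that were lower, where 31.7% and 34.2% of all families did so. The median log2 change was -0.13 for the members and -0.02 for all families, and 99 of 109 members stayed within 0.5 of 0. Without any 1 of the 4 libraries, most of the 7 higher calls and part of the 20 lower ones were lost, and fewer of all families were called. The members' median then lay between -0.14 and -0.072. The change of Charlie11 lay between -1.21 and -0.75 and that of Ricksha_0 between -1.09 and -0.91.

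Charlie17, a hAT family with 144 kb of copies, stood at 4.87 and 4.81 FPKM in the parental line with DMSO and 2.70 and 2.41 with DAC, and at 4.38, 4.53, 4.37 and 4.23 in the resistant libraries. The parental DAC pair was lower than all 6 other libraries (log2 change -0.92, SE 0.059, limma adjusted p = 0.000502). Charlie11, with 41.6 kb and 70 to 187 reads a library, went from 1.21 and 1.27 FPKM to 0.534 and 0.737 (log2 change -0.98, SE 0.15, limma adjusted p = 0.0103). Ricksha_0, a MULE family, went from 0.528 and 0.467 FPKM to 0.244 and 0.253 (log2 change -1.0, SE 0.14, limma adjusted p = 0.00804). Here the groups were separate, and in each of these families the parental DAC pair was the lowest of the 4 pairs. Charlie25 went from 0.260 and 0.237 FPKM to 0.168 and 0.185 (log2 change -0.49, limma adjusted p = 0.0267), a call that was lost without any 1 of the 4 libraries (limma adjusted p 0.0619 to 0.124) and with only the 4 libraries fitted (limma adjusted p = 0.0889). Of the named families called in this comparison, Charlie17 was the one that kept its call without each library in turn (highest limma adjusted p 0.00722), and for the others the highest limma adjusted p ran from 0.0505 for Ricksha_0 to 0.147 for Kanga1.

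The rises were of the same small kind. Zaphod stood at 0.180 and 0.195 FPKM with DMSO and 0.321 and 0.309 with DAC (log2 change 0.75, SE 0.11, limma adjusted p = 0.00816), and the 4 resistant libraries, between 0.177 and 0.223, were below both DAC libraries of parental cells. Charlie6 stood at 2.19 and 2.34 FPKM with DMSO and 2.93 and 3.23 with DAC (log2 change 0.44, SE 0.068, limma adjusted p = 0.0104). Charlie2b stood at 0.543 and 0.553 FPKM with DMSO and 0.725 and 0.690 with DAC (log2 change 0.37, SE 0.065, limma adjusted p = 0.0161). Kanga1, HSMAR1, Tigger12 and Charlie15b, the last 2 chosen after their values were seen, were the others past the threshold, with log2 changes of 0.26, 0.21, 0.20 and 0.18. The rescaling of the values to TPM (shares of all length-scaled repeat values) moved the median of all families from -0.02 to -0.42 and left 1 member higher and 87 lower, beside 5.92% and 53% of all families, and under it Charlie2b, HSMAR1 and Kanga1 were below 0. The gap between the median of the members and that of all families was -0.11 under the main scaling and -0.094 under quantile normalization. Gene-read, TPM and upper-quartile scaling multiply each library by a single factor, so by construction they leave the gap near -0.11 and are no check of it. It was -0.053 without the first parental DAC library, -0.042 with a pseudocount of 1 FPKM and -0.073 with no filter.

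Set beside other repeats in the same fit, the members' median of -0.13 compared with -0.07 for 127 L1 families, 0.05 for 47 Alu families and 0.06 for 379 retroviral families. L1 and Alu are retrotransposons that copy themselves through RNA, and retroviral families are remnants of viruses. At an adjusted p under 0.05 the retroviral families had 64 higher and 34 lower, the L1 families 14 and 19 and the Alu families 4 and 1. These are descriptions of the lists, and the differences between them were not tested. Within the members, TcMar had 3 higher and 10 lower of 51 and hAT 4 higher and 9 lower of 52. Over all families 12.6% were higher and 11% lower at this threshold. Tigger alone had 1 higher and 8 lower of 40, and Charlie 3 higher and 8 lower of 40. All 5 Ricksha families are low in reads, and 4 of 5 had parental DAC libraries below both DMSO libraries, with 1, Ricksha_0, past the threshold. Replicate ranges were separate and lower for 34.2% of all families and 50.5% of all members. Ricksha_b, chosen after its values were seen, moved as far as Ricksha_0 (0.507 and 0.528 FPKM with DMSO, 0.309 and 0.223 with DAC, log2 change -0.98), with an SE of 0.28 and a limma adjusted p of 0.0651.

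**Figure D2:**
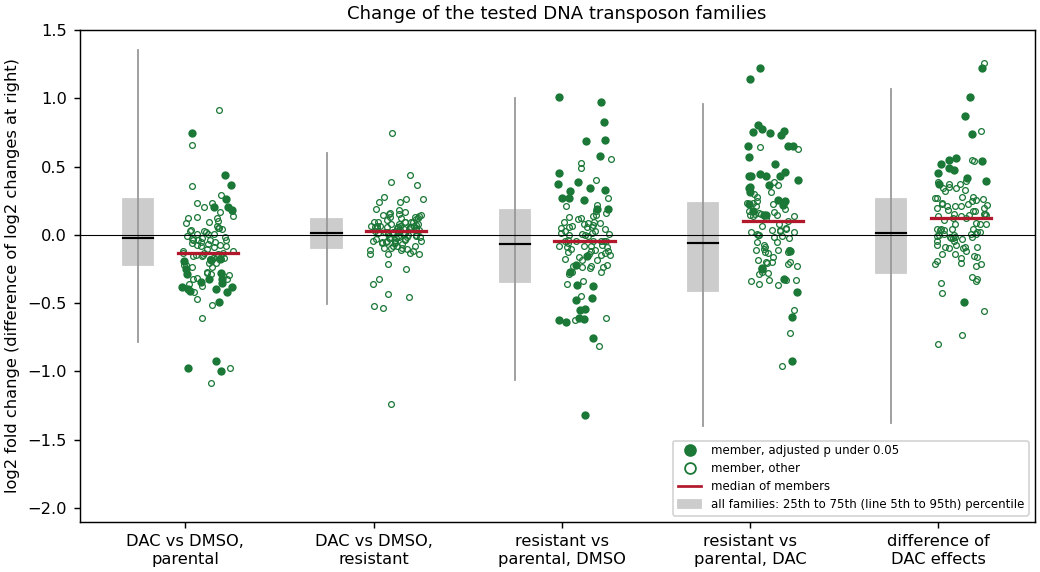
Log2 fold change of each of the 109 tested families (circles; filled at an adjusted p under 0.05) in the 4 comparisons, and the difference between the DAC effects at right, beside the spread of all tested families (grey box and line). The members' medians (red) are -0.13, 0.03, -0.04, 0.10 and 0.12 from left to right, and the resistant cells with DAC against DMSO show no filled circle.

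The second comparison asked the same of resistant cells, and no family passed the adjusted p. No member passed the stricter rule either, which called 0.258% of all families in each direction, where the adjusted p called 0% in each. At an unadjusted p under 0.05, 12 of 109 members passed by limma, beside 10% of all families, and limma on recovered reads (voom) passed 2 as higher at an adjusted p under 0.05, beside 1.63% of all families. Replicate ranges did not overlap for 29 members that were higher and 20 that were lower, beside 23.9% and 19.5% of all families. The median log2 change was 0.03 and 105 of 109 members stayed within 0.5 of 0. The changes farthest from 0 were those of Ricksha_a, at 0.301 and 0.301 FPKM with DMSO and 0.124 and 0.129 with DAC (log2 change -1.24, SE 0.33, limma adjusted p = 0.348), and ORSL-2a, at 0.151 and 0.126 with DMSO and 0.248 and 0.217 with DAC (log2 change 0.75, SE 0.15, limma adjusted p = 0.238). HSMAR2 was at 0.975 and 1.02 FPKM with DMSO and 1.22 and 1.19 with DAC (log2 change 0.27, SE 0.045, limma adjusted p = 0.188), and Zaphod2 at 0.615 and 0.602 with DMSO and 0.771 and 0.798 with DAC (log2 change 0.37, SE 0.069, limma adjusted p = 0.213). The groups of these 4 families were separate, but none passed the test over all families in the main fit. HSMAR2 passed under 1 of the 17 settings that were run (lowest limma adjusted p = 3.43e-05), and Ricksha_a, ORSL-2a and Zaphod2 under 0. The 20 families that fell in parental cells had a median log2 change of 0.06 in resistant cells, between -0.13 for Tigger11a and 0.27 for HSMAR2, with 16 above 0. The 7 that rose in parental cells had a median of 0.05 there, with 5 above 0. Of all 109 members, 64 were above 0 in resistant cells, and of all 1165 families, 632. The medians of these were 0.03 and 0.01, and the difference of the 20 from them was not tested. The resistant libraries share no sample with the parental ones.

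The difference between the DAC effects of the cell lines was tested directly as an interaction. Charlie11 and Ricksha_0 passed the stricter rule, with DAC effects that were higher in resistant than in parental cells by 1.22 (SE 0.21, limma adjusted p = 0.0244) and 1.01 (SE 0.20, limma adjusted p = 0.0316) on the log2 scale. This rule called 1.12% of all families as higher and 3.26% as lower. At an adjusted p under 0.05, 14 of 109 members were higher and 1 lower, beside 6.44% and 6.87% of all families. Under TPM more members were higher, where 37.3% of all families were higher and 4.89% lower. The 14 were Charlie2a, Charlie11, Charlie17, Charlie18a, Charlie25, Cheshire, HSMAR2, Kanga2_a, Ricksha_0, Tigger4, Tigger7, Tigger10, Tigger16b and Zaphod2, and Charlie6 was the lower one at -0.49. Charlie17 had the smallest adjusted p (difference 0.87, SE 0.084, limma adjusted p = 0.00327). Without any 1 of the 8 libraries most of the 14 higher calls were lost, and fewer of all families were called. The difference of Charlie11 then lay between 0.99 and 1.45 (highest limma adjusted p 0.080) and that of Ricksha_0 between 0.85 and 1.18 (highest limma adjusted p 0.0992), whereas Charlie17 and HSMAR2 passed under all 20 settings that were run.

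The third comparison asked how resistant cells differed from parental ones without the drug. Charlie6, Kanga1 and Tigger16b were higher in resistant cells, and ORSL-2a, Arthur1B and Zaphod2 were lower. The stricter rule passed 1 member as higher, Charlie6, and 1 as lower, ORSL-2a, where 2.49% and 2.15% of all families passed. At an adjusted p under 0.05, 17 of 109 were higher and 15 lower, beside 11.9% and 17.6% of all families. Scaled by gene reads, 8 were higher and 41 lower, beside 6.35% and 35% of all families, and TPM gave 10 and 31, beside 7.47% and 27.8%, so the split moved with the scaling. Without any 1 of the 4 libraries it was 8 to 12 higher and 4 to 7 lower, where 6.70% to 7.73% and 5.58% to 8.15% of all families were called. The gene-read scaling moved the median of all families from -0.07 to -0.25 and that of the members from -0.04 to -0.22. The gap between the members and all families was 0.028 on both scales, which a single factor per library leaves nearly fixed. Under quantile normalization, which is no such factor, the gap was -0.0055. Replicate ranges did not overlap for 29 members that were higher and 43 that were lower, beside 26.2% and 40.3% of all families.

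Charlie6 stood at 2.19 and 2.34 FPKM in parental and 4.60 and 4.52 in resistant cells with DMSO (log2 difference 1.01, SE 0.068, limma adjusted p = 0.00075), and relative to gene reads the difference was 0.83, under the fold minimum of the stricter rule. Parental cells with DAC, at 2.93 and 3.23 FPKM, lay between these pairs, and resistant cells with DAC, at 4.58 and 4.22, did not separate from resistant cells with DMSO. Kanga1 stood at 0.471 and 0.423 FPKM against 0.884 and 0.874 (log2 difference 0.98, SE 0.063, limma adjusted p = 0.000667, and 0.80 relative to gene reads). All 4 resistant libraries of Kanga1 were above all 4 parental ones, the highest of which was 0.549. The families that share its name did not do so: Kanga1a, Kanga1b, Kanga1c and Kanga1d, chosen after their values were seen, had log2 differences of -0.04, -0.34, -0.15 and 0.09, and none passed the test.

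ORSL-2a, a hAT family with 71.3 kb of copies, stood at 0.384 and 0.310 FPKM in parental and 0.151 and 0.126 in resistant cells with DMSO, on 28 to 102 reads a library (log2 difference -1.32, SE 0.15, limma adjusted p = 0.00412, and -1.49 relative to gene reads). With DAC it stood at 0.432 and 0.452 FPKM in parental and 0.248 and 0.217 in resistant cells. ORSL-2b, also chosen afterwards, lay between 0.275 and 0.369 FPKM in all libraries. Arthur1B went from 0.329 and 0.357 FPKM to 0.232 and 0.178 (log2 difference -0.75, limma adjusted p = 0.0155, and -0.93 relative to gene reads). Its call was lost without either parental DMSO library (highest limma adjusted p 0.0767). Zaphod2 went from 0.942 and 0.959 FPKM to 0.615 and 0.602 (log2 difference -0.64, SE 0.069, limma adjusted p = 0.00342, and -0.82 relative to gene reads). Looper, the piggyBac family, went from 0.768 and 0.674 FPKM to 0.498 and 0.444 (log2 difference -0.61, limma adjusted p = 0.0118) and was chosen after its values were seen. ORSL-2a and Zaphod2 passed the test under all 17 settings that were run.

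**Figure D3:**
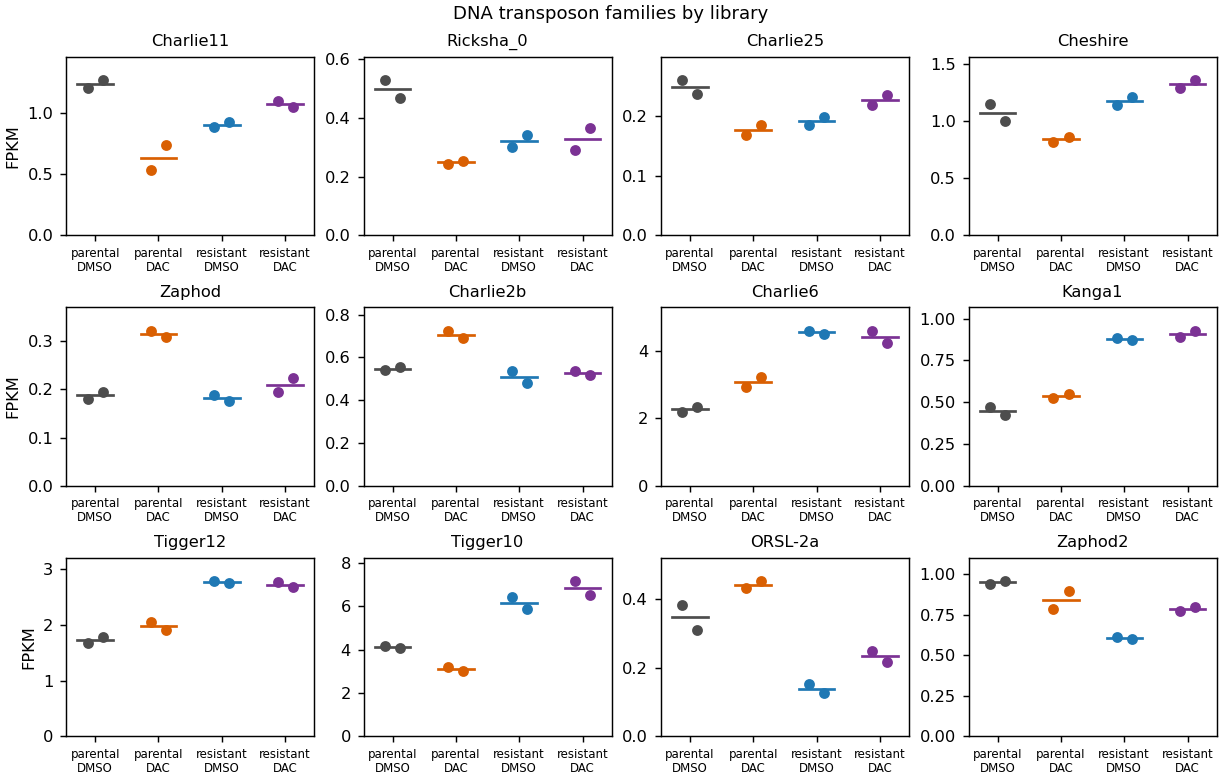
FPKM of 12 families in each library by group, on axes that start at 0; points are libraries and lines are means of 2. Charlie11, Ricksha_0, Charlie25 and Cheshire have their lowest mean in parental cells with DAC, Charlie6, Kanga1, Tigger12 and Tigger10 are higher in all 4 resistant libraries than in the parental ones, and ORSL-2a is lower in them.

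The fourth comparison set resistant against parental cells, both with DAC. It shares its parental DAC libraries with the first comparison and its resistant DAC libraries with the second, so it is no independent evidence beside them. Tigger16b and Tigger10 passed the stricter rule as higher in resistant cells and no member as lower, where 1.97% and 5.24% of all families passed. At an adjusted p under 0.05, 31 of 109 were higher and 7 lower, beside 17.1% and 18.9% of all families. Scaled by gene reads 18 were higher and 26 lower, beside 9.44% and 33.6% of all families, and under TPM 60 and 2, beside 32.1% and 11.3%. Without any 1 of the 4 libraries it was 19 to 22 higher and 4 to 5 lower, where 10.0% to 11.2% and 11.4% to 14.8% of all families were called. The median was 0.10 for the members and -0.06 for all families, and relative to gene reads -0.06 and -0.22. The gap between them was 0.16 on both scales, which a single factor per library leaves nearly fixed. It was 0.061 under quantile normalization, 0.052 with a pseudocount of 1 FPKM and 0.033 with no filter. Replicate ranges did not overlap for 55 that were higher and 31 that were lower, beside 30.2% and 41.1% of all families. L1 families had a median of -0.10 (18 higher and 31 lower at an adjusted p under 0.05), retroviral families one of -0.17 (55 and 90) and Alu families one of 0.0053 (8 and 7), and the differences between these lists and the members were not tested.

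Tigger16b stood at 4.01 and 3.89 FPKM in parental cells with DMSO, 3.38 and 3.27 after DAC, 6.90 and 7.12 in resistant cells with DMSO and 7.57 and 7.97 with DAC. The lowest resistant library was 6.90 and the highest parental one 4.01. The log2 difference was 1.22 with DAC (SE 0.044, limma adjusted p = 6.29e-05) and 0.83 with DMSO (SE 0.044, limma adjusted p = 0.00039), and relative to gene reads it was 1.07 and 0.65. Tigger10 stood at 4.16 and 4.08, 3.21 and 3.0, 6.41 and 5.88, and 7.17 and 6.53 FPKM in the same order, with log2 differences of 1.14 with DAC (SE 0.070, limma adjusted p = 0.000324) and 0.58 with DMSO (SE 0.070, limma adjusted p = 0.00484). Tigger10 relative to gene reads was higher in resistant cells by 0.99 with DAC, which is just under the stricter rule, and by 0.40 with DMSO. After quantile normalization its difference with DMSO was 0.26 and did not pass (limma adjusted p = 0.0809). Of the 7 families that were lower, the log2 differences farthest from 0 were those of ORSL-2a (-0.93, limma adjusted p = 0.00769), Zaphod (-0.60, limma adjusted p = 0.0101) and Charlie2b (-0.42, limma adjusted p = 0.00667), and relative to gene reads these were -1.08, -0.75 and -0.58. Zaphod lost its call without the first parental DAC library (limma adjusted p = 0.0593) and after quantile normalization (-0.38, limma adjusted p = 0.066), and Charlie2b under TPM (-0.19, limma adjusted p = 0.0735). The other 4, chosen after their values were seen, were Tigger17c at -0.33, Charlie19a at -0.25, Charlie15b at -0.24 and Charlie8 at -0.12. For Zaphod and Charlie2b the 2 parental DAC libraries were above the other 6, so the difference lay on the parental side.

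Families of nearly the same name had unlike values in 4 sets chosen after their values were seen. Tigger16a, next to Tigger16b in name, lay between 1.18 and 1.36 FPKM in all 8 libraries, with a log2 difference of 0.15 with DAC (limma adjusted p = 0.0371) and an adjusted p of 0.963 with DMSO. Charlie17a lay between 1.52 and 2.09 FPKM, and in parental cells its DAC libraries, at 1.52 and 1.77, were below its DMSO libraries, at 1.8 and 1.82, without passing the test (log2 change -0.14, limma adjusted p = 0.26), and its difference from Charlie17 was not tested. Charlie17b, at 0.248 and 0.262 FPKM in parental and 0.402 and 0.422 in resistant cells with DMSO, was higher in the resistant cells (log2 difference 0.69, limma adjusted p = 0.0268), where Charlie17 was at -0.12. Tigger12 was higher in resistant cells with DMSO (1.67 and 1.77 against 2.79 and 2.76 FPKM, log2 difference 0.69, limma adjusted p = 0.000876) as was Tigger12A (2.06 and 2.29 against 2.76 and 2.92 FPKM, log2 difference 0.39, limma adjusted p = 0.0479), while Tigger12c did not pass the test (1.70 and 1.5 against 1.57 and 1.63 FPKM). Tigger19a lay between 3.0 and 3.47 FPKM, with a log2 difference of 0.06 with DMSO, and Tigger19b, its neighbour in name, was at 0.32 (limma adjusted p = 0.00773). Relative to gene reads the Tigger19b difference was 0.15, and after quantile normalization it was -0.03. The other differences between the cell lines in these sets are on the repeat-read scale only. Gene-read scaling moved the median of all families from -0.07 to -0.25 with DMSO and from -0.06 to -0.22 with DAC. Small differences such as those of Tigger16a and Tigger12A may therefore not hold on that scale.

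HSMAR1, HSMAR2 and MADE1 are mariner elements that spread in the ancestors of primates. HSMAR2, with 1142 kb of copies, stood at 0.826 and 0.845 FPKM in parental cells with DMSO, 0.666 and 0.707 after DAC, 0.975 and 1.02 in resistant cells with DMSO and 1.22 and 1.19 with DAC. The 4 pairs did not overlap, with parental DAC lowest and resistant DAC highest. It fell with DAC in parental cells by 0.28 (SE 0.045, limma adjusted p = 0.0114), and the interaction was 0.55 (SE 0.064, limma adjusted p = 0.00648). In resistant against parental cells it was higher by 0.81 with DAC (limma adjusted p = 0.00023) and 0.26 with DMSO (limma adjusted p = 0.0146), and relative to gene reads by 0.65 and by 0.08, the latter not past the test (limma adjusted p = 0.213). HSMAR1 went the other way in parental cells, from 1.79 and 1.82 FPKM with DMSO to 2.08 and 2.09 with DAC, and stood at 2.19 to 2.39 in the resistant libraries. Its changes were 0.21 with DAC in parental cells (limma adjusted p = 0.0346) and 0.34 in resistant against parental cells with DMSO (limma adjusted p = 0.00754), and 0.18 and 0.17 relative to gene reads (limma adjusted p = 0.051 and 0.0443). The call with DAC in parental cells was also lost without any 1 of the 4 libraries. The call with DMSO was lost after quantile normalization (0.21, limma adjusted p = 0.0655) and with only the 4 libraries fitted (limma adjusted p = 0.0561). With DAC, resistant cells were higher than parental ones by 0.17 (limma adjusted p = 0.0413). Relative to gene reads that difference was 0.016 and did not pass the test (limma adjusted p = 0.823).

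MADE1, the source of many miR-548 hairpins, stood at 0.737 and 0.611 FPKM in parental cells with DMSO, 0.570 and 0.531 after DAC, 0.538 and 0.597 in resistant cells with DMSO and 0.563 and 0.617 with DAC. Its log2 change with DAC in parental cells was -0.29 (SE 0.11, limma adjusted p = 0.132), and no comparison of it passed the test under the main scaling. In resistant against parental cells with DMSO its log2 difference was -0.24 (limma adjusted p = 0.167), and relative to gene reads it was -0.42 and passed (limma adjusted p = 0.0368). By voom on recovered reads MADE1 passed there (limma adjusted p = 0.0135) and with DAC in parental cells (limma adjusted p = 0.0047). With DAC in parental cells it passed under 2 of 17 settings in all, and its change was as low as -0.69 under another scaling. The difference of its DAC effects was 0.34 (limma adjusted p = 0.231) and passed under 2 of 20 settings (lowest limma adjusted p = 0.0196). MADE2 lay between 1.56 and 1.97 FPKM, with changes between -0.14 and 0.13 over the 4 comparisons, and did not pass it under the main scaling either. Its differences between the cell lines were 0.09 with DMSO and 0.13 with DAC, and -0.09 and -0.03 relative to gene reads. At 848 to 1389 reads a library for MADE1, the SE of 0.11 leaves small changes undetected.

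**Figure D4:**
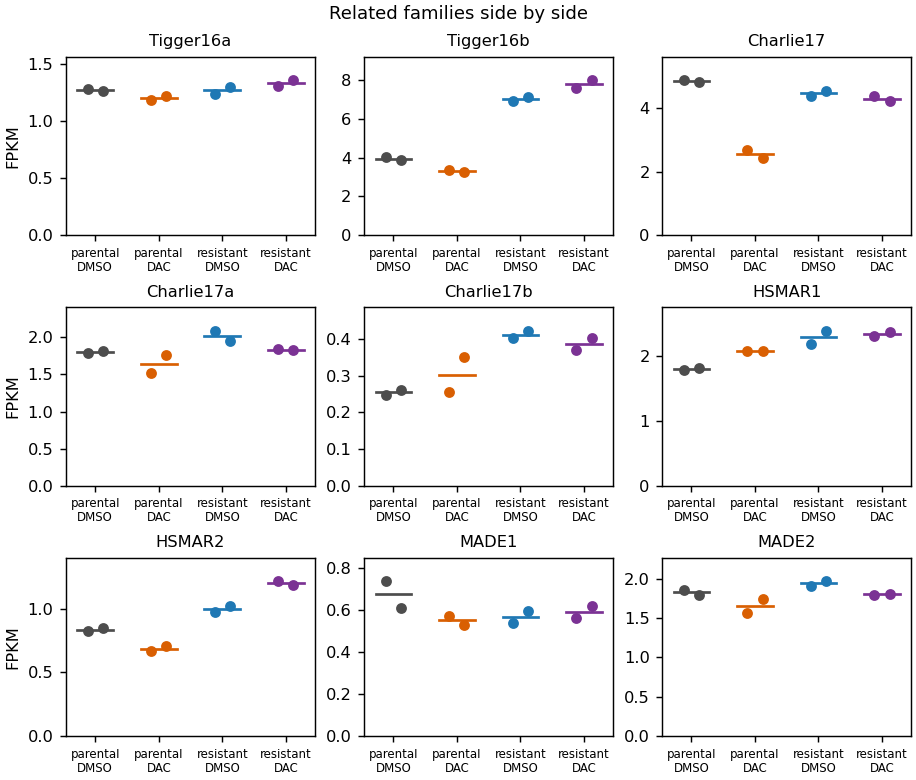
FPKM of 9 families in each library, grouped so that neighbours in name can be compared, on axes that start at 0. Tigger16b and Charlie17 move between groups by up to several FPKM, while Tigger16a stays between 1.18 and 1.36 FPKM and Charlie17a between 1.52 and 2.09 FPKM.

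Human genes that arose from DNA transposon proteins were examined from a list of 33 genes, of which 32 were in the table and 23 passed the minimum for genes (1 FPKM in at least 2 libraries). They are single genes with known places, scaled by gene reads, so the repeat-read scaling does not enter their values. With DAC in parental cells 6 of 23 were higher and 6 lower at a limma adjusted p under 0.05 over all 14899 genes tested, of which 33.6% were higher and 24.1% lower. In resistant cells 1 was higher and 0 lower (5.88% and 5.35% of all genes). In resistant against parental cells 3 were higher and 7 lower with DMSO (31.3% and 26.2%) and 9 higher and 6 lower with DAC (32% and 35.1%). For the interaction 5 were higher and 5 lower (20.9% and 28.4%). By the stricter rule 1 rose and 1 fell with DAC in parental cells (6.66% and 2.64% of all genes). In resistant against parental cells 0 were higher and 1 lower with DMSO (4.45% and 4.28%), and 0 higher and 2 lower with DAC (5.29% and 9.17%). For the interaction 1 was higher and 1 lower (3.46% and 7.16%). Some of these calls are descriptions and not tests, because the gene met the minimum only through the libraries in which it is high. These were PGBD5, through its parental DAC libraries, and GTF2IRD2B and PGBD4, both chosen after their values were seen, through their parental ones. Without them the counts at an adjusted p were 5 higher with DAC in parental cells, 5 and 4 lower in resistant cells with DMSO and with DAC, and 4 lower for the interaction, and by the stricter rule 0 rose with DAC in parental cells, 1 was lower in resistant cells with DAC and 0 were lower for the interaction. Their fold changes were computed on log2(FPKM + 1), which understates the change of low genes.

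SETMAR joins a histone methyltransferase domain to an HSMAR1 transposase and lies at chr3:4303332-4317265 on the plus strand (GRCh38, GENCODE). It stood at 2.06 and 1.57 FPKM in parental cells with DMSO, 2.71 and 2.33 after DAC, 2.04 and 1.76 in resistant cells with DMSO and 2.11 and 1.9 with DAC. It rose with DAC in parental cells by 0.32 (SE 0.11, limma adjusted p = 0.0467), and HSMAR1 was higher there under the main scaling. Whether reads on the HSMAR1 copy in SETMAR were counted for the family too was not tested. PGBD5, a domesticated piggyBac transposase gene on chromosome 1, stood at 0.445 and 0.390 FPKM with DMSO and 2.30 and 2.33 with DAC in parental cells, and at 0.177 to 0.270 in the 4 resistant libraries. Only the parental DAC pair was above 0.5 FPKM, and the gene met the minimum of 1 FPKM through that pair alone, so its log2 change of 1.23 and its interaction of -1.18 are descriptions and not tests.

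Among genes from hAT elements, ZBED3 fell with DAC in parental cells from 5.32 and 5.28 FPKM to 1.63 and 1.33 and stood at 2.89 to 3.77 in resistant libraries (log2 change -1.35, SE 0.083, limma adjusted p = 2.46e-05). The interaction was 1.54 (limma adjusted p = 0.000104), and in resistant against parental cells the log2 difference was -0.64 with DMSO (limma adjusted p = 0.000715) and 0.90 with DAC (limma adjusted p = 0.000101). ZBED1, which encodes a DNA-binding protein, rose in parental cells from 11.0 and 11.6 FPKM to 18.8 and 20.04 (log2 change 0.73, limma adjusted p = 6.9e-05). It was at 5.17 and 4.71 FPKM in resistant cells with DMSO and 4.88 and 4.82 with DAC, below all parental libraries (log2 difference -1.05 with DMSO, limma adjusted p = 1.45e-05, and -1.80 with DAC, limma adjusted p = 8.43e-07). ZBED4 was higher in resistant cells with DMSO, at 26.4 and 26.5 FPKM against 13.0 and 14.1 (log2 difference 0.92, limma adjusted p = 1.23e-05), and with DAC (0.85, limma adjusted p = 1e-05).

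Of the genes from pogo and Tigger elements, POGK stood at 19.4 and 19.3 FPKM in parental cells with DMSO, 15.1 and 15.1 after DAC, 26.0 and 25.9 in resistant cells with DMSO and 28.1 and 28.3 with DAC. It fell with DAC in parental cells by 0.34 (SE 0.026, limma adjusted p = 6.78e-05) and rose in resistant cells by 0.12 (limma adjusted p = 0.0394), the one call of the list there. CENPB, which encodes a centromere protein that binds alpha satellite DNA, was higher in resistant cells with DMSO (16.8 and 16.8 against 26.1 and 27.9 FPKM, log2 difference 0.65, limma adjusted p = 0.000264). PGBD2, of piggyBac origin, was lower there (4.04 and 3.95 against 1.87 and 1.63 FPKM, log2 difference -0.86, limma adjusted p = 0.000284). In the same comparison TIGD6 was lower by a log2 difference of -0.72 (limma adjusted p = 0.000462).

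**Figure D5:**
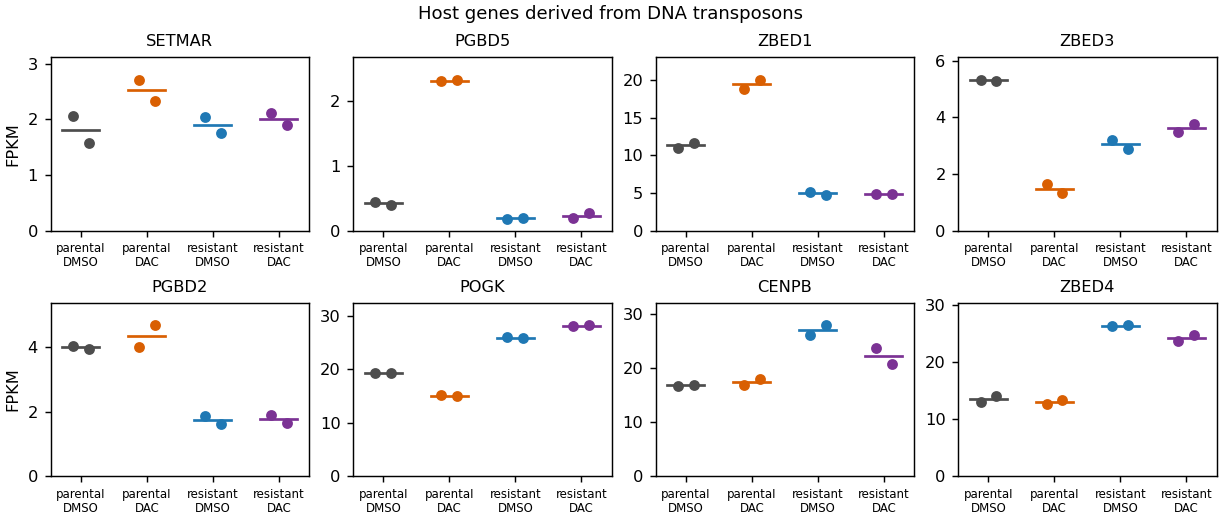
FPKM of 8 host genes derived from DNA transposon proteins in each library by group, on axes that start at 0; points are libraries and lines are means of 2. PGBD5 is above 0.5 FPKM only in parental cells with DAC, ZBED3 is lowest there, and ZBED1 is lower and ZBED4 higher in all 4 resistant libraries than in the parental ones.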

How the data were processed

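Bulk mRNA libraries of THP-1 cells (8 libraries, 4 groups of 2) were analysed from the 1 table the authors deposited. Per the labels and the study's methods, reads were trimmed with cutadapt 1.9.1, aligned to hg38 with HISAT2 2.1.0, sorted with SAMtools 1.6 and counted with HTSeq 0.13.5 on Ensembl genes and on annotated repeats by family. The deposited values are FPKM multiplied by 1000, with families scaled by a repeat-read total of their own and genes by a gene-read total. Because the values step in whole reads, reads, totals and family lengths were recovered from them (whole within 0.001 for all 1264 families). How reads on several copies were shared among them is not given in the sources used here.

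Families with a deposited value of at least 1 in at least 2 libraries (1165) were fitted with limma 3.58.1 (R 4.3.3) on log2(deposited value + 1), a pseudocount of 0.001 FPKM, with 4 group means and a variance trend, and genes likewise on log2(FPKM + 1). P-values were adjusted by Benjamini-Hochberg over all features. Low families and genes have understated folds. Replicates were labelled biological, and with 2 a group each variance rests on few libraries. The variance shared across features carried the smaller part of the weight (prior degrees of freedom 1.32 for families and 2.50 for genes). On simulated data for DAC in parental cells, the stricter rule called 96% of 200 families changed by 1.5 on the log2 scale, among 1103, and 2 unchanged ones. The spread between simulated replicates was set in advance, and 1.5 is more than any member changed in that comparison (-1.09 to 0.92). The simulation therefore gives no rate for small changes or for calls by adjusted p.

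Named families were those passing the stricter rule, the 3 largest rises and 3 largest falls per comparison at an adjusted p under 0.05 with separate groups, the 5 highest and 5 lowest means, and HSMAR1, HSMAR2, MADE1 and MADE2. Of host genes, SETMAR and up to 3 each way per comparison qualified. The members and lists were chosen with earlier results of these data known. Alternatives changed the pseudocount, filter, scaling, trend, block, libraries and model (voom on recovered reads).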

Additional observations from a re-analysis of the deposited data

Results flagged for a closer look

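The DAC effect differed between resistant and parental cells, by the interaction in limma at an adjusted p under 0.05, for 15 of 109 families (14 higher and 1 lower, beside 6.44% and 6.87% of all families). It also did for 10 of 23 host genes (5 higher and 5 lower, or 4 lower without PGBD5, beside 20.9% and 28.4% of all genes). The host gene shares are near or below those of all genes. Without any 1 of the 8 libraries most of the 14 higher calls of families were lost, and fewer of all families were called. On the log2 scale, resistant minus parental, it was 1.22 for Charlie11, 1.01 for Ricksha_0, 0.87 for Charlie17, 0.74 for Charlie25, 0.57 for Tigger10, 0.55 for HSMAR2, 0.54 for Zaphod2, 0.52 for Cheshire, 0.49 for Charlie2a, 0.48 for Kanga2_a, 0.46 for Tigger4, 0.42 for Charlie18a, 0.40 for Tigger16b, 0.38 for Tigger7 and -0.49 for Charlie6. Cheshire, Charlie2a, Kanga2_a, Tigger4, Charlie18a and Tigger7 fall outside the rule for named families and were chosen after their values were seen.

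Among host genes, on the log2(FPKM + 1) scale, it was 1.54 for ZBED3, 0.68 for ZBED8, 0.47 for TIGD6, 0.45 for POGK, 0.27 for POGZ, -0.24 for ZBED5, -0.33 for CENPB, -0.51 for JRK, -0.75 for ZBED1 and -1.18 for PGBD5. PGBD5 met the minimum for genes only through its parental DAC libraries, so its value is a description.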

How the results depend on the processing

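For DAC in parental cells, counts at an adjusted p with no fold minimum were 7 higher and 20 lower. The stricter rule passed 2 members as lower with gene-read scaling, 5 with TPM, 3 with quantile normalization and 1 with voom on recovered reads, beside 1.03%, 3.43%, 1.37% and 1.03% of all families. The adjusted p gave 1 higher and 87 lower with TPM (5.92% and 53% of all families), 4 and 8 with only the 4 libraries compared (8.15% and 6.09%), 4 higher with no variance trend (11.8%) and 32 lower with voom (18.5%). The median was -0.046 with a pseudocount of 1 FPKM and -0.53 with TPM, where that of all families was -0.0040 and -0.42. With TPM, Charlie10a was at -0.37, Charlie2b at -0.036, HSMAR1 at -0.20 and Kanga1 at -0.14. Without single libraries, most of the 7 higher calls and part of the 20 lower ones were lost, and fewer of all families were called. The members' median then lay between -0.14 and -0.072.

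For DAC in resistant cells, 1 member was lowered with a mean of at least 10 reads, with TPM and with only 4 libraries (0.185%, 0.343% and 0.515% of all families), and voom gave 2 higher (1.63%).

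For resistant against parental cells with DMSO, counts with no fold minimum were 17 and 15. A pseudocount of 1 FPKM passed 0 as raised and 0 as lowered (0.429% and 0.172% of all families), and gene-read, TPM and upper-quartile scaling passed 0 as raised (1.72%, 2.15% and 2.4%). Gene reads gave 8 higher and 41 lower (6.35% and 35%) with a median of -0.22 against -0.25 for all families, TPM 10 and 31 (7.47% and 27.8%) with a median of -0.15 against -0.18, quantile normalization 8 higher (10.6%), and only the 4 libraries 11 and 3 (6.87% and 6.35%). Tigger19b was at -0.030 with quantile normalization. Without single libraries, part of the 17 higher calls and most of the 15 lower ones were lost, and fewer of all families were called. The difference of Charlie6 then lay between 0.96 and 1.06 and that of ORSL-2a between -1.47 and -1.16.

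With DAC, counts with no fold minimum were 31 and 7. A pseudocount of 1 FPKM passed 1 as raised (0.601% of all families) with a median of 0.036, and no filter gave a median of 0.026, against -0.016 and -0.0075 for all families. Gene reads passed 1 as raised and 1 as lowered (1.37% and 7.55%), with 18 higher, 26 lower (9.44% and 33.6%) and a median of -0.057 against -0.22, and TPM passed 4 as raised (3.78%), with 60 higher, 2 lower (32.1% and 11.3%) and a median of 0.33 against 0.17. Lower counts were 12 with upper-quartile scaling, 4 with the replicate block, 4 with no variance trend and 14 with voom, beside 20.9%, 17.1%, 18.8% and 25% of all families. Without single libraries, 0 to 1 were lowered, 19 to 22 higher and 4 to 5 lower. Over all families the shares were then 3.86% to 5.75%, 10.0% to 11.2% and 11.4% to 14.8%, in the same order.

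For the difference of the DAC effects, counts with no fold minimum were 14 and 1. A pseudocount of 10 passed 1 as raised (1.03% of all families), one of 1 FPKM 0 as raised (0.343%) with 2 lower (7.21%) and a median of 0.037, and no filter gave a median of 0.042. TPM passed 5 as raised (3.18%), with 67 higher, 0 lower (37.3% and 4.89%) and a median of 0.47 against 0.36 for all families, so that it moved all families. Quantile normalization gave 0 lower (6.52%), and voom 26 higher and 3 lower (13.8% and 11.8%). Without single libraries, most of the 14 higher calls were lost, and fewer of all families were called. The difference of Charlie11 then lay between 0.99 and 1.45 and that of Ricksha_0 between 0.85 and 1.18.

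With the replicate number as a block, the difference gave 8 higher and 0 lower (3.52% and 5.32% of all families); deviations of same-numbered libraries correlated between -0.13 and 0.19, so the numbers were not taken as pairs. Summed shares relative to gene reads had log2 ratios of -0.13 for DAC in parental cells, -0.11 for resistant against parental cells with DMSO and 0.044 with DAC. With a pseudocount of 0.1 FPKM, host genes passing the stricter rule were 2 lowered with DAC in parental cells, 4 lowered in resistant cells with DMSO, 1 raised and 4 lowered with DAC, and 2 raised for the difference. The shares of all genes at that pseudocount are not given here, so these counts cannot be set against a background. ZBED1, the 1 host gene lowered by the stricter rule in resistant cells with DMSO, did not keep that call in every fit without a single library. Of the 1909 values for named families under alternatives, 1638 kept their sign and side of the threshold, 60 changed sign and passed it under neither setting, 160 lost the threshold, 46 gained it and 5 changed sign with a call on either side. The cause of these changes was not tested. Members under 100 reads a library had replicates 0.24 apart on the log2 scale, so small changes there are not detectable.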
